A study of Mus musculus with 11 samples.

Results

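Slc16a12, Foxa3, Upp1, Sult1a1 and Trib2 are 5 genes whose transcripts stood far higher in p53-/- than in p53+/+ LSKs. LSKs are the Lin-Sca1+Kit+ cells of the bone marrow, which hold the hematopoietic stem cells (HSCs) and the multipotent progenitors. The 5 genes were chosen on these very libraries as those with the greatest fitted rise in p53-/- LSKs among genes with an adjusted p below 0.05, an average log2 CPM (counts scaled by library size) of 1 or more and all 3 p53-/- libraries above all 3 p53+/+ libraries. They are 5 of 12647 genes in the deposited count table, and all 5 were among the 12625 genes tested. By fold change alone they ranked 9, 12, 20, 25 and 32. The genes passed over above and between them failed at least 1 of those criteria, and Adamts1, with the greatest fitted log2 difference of 4.10 (SE 1.43), failed both on its adjusted p and on its low level.

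The RNA came from LSKs of C57BL/6 mice of 3 genotypes, 8 to 12 weeks old and tumor free, with 3 libraries a genotype. The p53+/+ mice carry the HUPKI allele, a humanized p53 knock-in expressed from the endogenous mouse Trp53 promoter, in which part of the mouse gene is replaced by human sequence. The p53R248W/+ mice are heterozygous for the same allele with the R248W mutation in the DNA-binding domain. The p53-/- mice lack p53, so they differ from the controls in the humanized allele as well as in p53 itself. The sample titles name the p53+/+ and p53R248W/+ libraries in matching forms and the p53-/- libraries in another form. Whether the p53-/- libraries were prepared apart is not stated, and such a difference could not be told apart from genotype. The labels do not say that each library is a separate mouse, so p-values measure the spread between these libraries, which may be technical. A sorted bulk population cannot tell fewer cells of a type from less RNA per cell.

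p53 is a transcription factor that stress activates. It turns on genes of cell cycle arrest, such as Cdkn1a, and of cell death, and it lowers many genes indirectly, through the p21 protein that Cdkn1a encodes. In HSCs p53 is known for keeping the cells quiescent and for limiting their self-renewal. The R248W protein has largely lost binding to p53 target sites, and in a heterozygous cell it can also hamper the protein made from the remaining wild-type allele. The comparison asks how the genes that stand highest without p53 behave when 1 allele carries R248W.

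The 5 genes have unrelated functions. Slc16a12 encodes a monocarboxylate transporter family member that carries creatine, and Foxa3 a forkhead transcription factor best known from liver and other endoderm. Upp1 encodes uridine phosphorylase, which cleaves uridine to uracil in pyrimidine salvage. Sult1a1 encodes a cytosolic sulfotransferase that transfers sulfonate from the donor PAPS to phenols. Trib2 encodes a Tribbles pseudokinase that brings the COP1 ubiquitin ligase to C/EBPα, and its forced expression can cause acute myeloid leukemia in mice.

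The genes lie on 4 chromosomes of the GRCm38.p6 assembly, to which mm10, the build in the submitters' processing notes, corresponds. Slc16a12 (gene ID 240638) spans chr19:34668401-34747493 and Trib2 (217410) chr12:15791725-15816962. Foxa3 (15377) spans chr7:19013283-19023539 and Sult1a1 (20887) chr7:126672865-126690443. All 4 are on the minus strand. Upp1 (22271) spans chr11:9118008-9136170 on the plus strand, 60.4 Mb from Trp53 on the same chromosome. The longest RefSeq model of Sult1a1 overlaps Slx1b on the same strand. Slx1b, a structure-specific endonuclease subunit, lay between 9.33 and 12.4 CPM in the p53-/- libraries and between 14.2 and 18.4 CPM in the p53+/+ libraries, so its levels did not rise with those of Sult1a1. Trib2 overlaps the lncRNA gene Gm5432 at its start on the opposite strand, and whether reads were counted by strand is not given in the sources used here.

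RefSeq promoter windows matched all 5 genes, with 1 window each except for Upp1, which has 3. The 250 bases before the start site of Foxa3, of the outermost Upp1 start and of Sult1a1 are printed because these genes rose most alike across the p53-/- libraries, as described further on. The Sult1a1 window, chr7:126676419-126676668, belongs to a start inside the span given for the gene, so its letters do not lie upstream of the whole gene. It is cut to its first 144 bases, which lie outside the annotated exons. Capitals mark the letters CCAAT, the motif TATAAA of the TATA box, the motif GGGCGG of the GC box and the motif TTTGAA of the cell cycle element CHR, each searched on both strands, so that a box on the other strand stands as its reverse complement.
Foxa3, chr7:19023540-19023789, minus strand: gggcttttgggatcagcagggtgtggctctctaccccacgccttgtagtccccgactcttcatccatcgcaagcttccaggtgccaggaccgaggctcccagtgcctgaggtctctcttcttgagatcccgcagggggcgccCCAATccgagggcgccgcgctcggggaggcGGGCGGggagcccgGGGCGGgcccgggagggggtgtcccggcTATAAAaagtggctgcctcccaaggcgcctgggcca
Upp1, chr11:9117758-9118007, plus strand: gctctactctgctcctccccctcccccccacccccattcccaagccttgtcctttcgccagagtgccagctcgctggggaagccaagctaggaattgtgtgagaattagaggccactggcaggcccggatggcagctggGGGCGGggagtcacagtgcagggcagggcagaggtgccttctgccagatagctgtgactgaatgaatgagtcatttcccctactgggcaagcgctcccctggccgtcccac
Sult1a1, chr7:126676525-126676668, minus strand: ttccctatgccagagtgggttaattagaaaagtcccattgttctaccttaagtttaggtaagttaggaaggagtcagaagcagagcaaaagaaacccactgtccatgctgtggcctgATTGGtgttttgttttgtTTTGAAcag

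The letters show 3 different stretches. Foxa3 has a TATA box, 2 GC boxes and a CCAAT box, Upp1 a GC box alone, and Sult1a1 a CCAAT box and a CHR but not a single CpG in its whole window. Among 32841 promoter windows of 250 bases, 12.4% held a TATA box, 32.7% a GC box, 33.9% a CCAAT box and 16% a CHR. Trib2 lay at the other end of base composition, with 34 CpGs, at percentile 97 of all windows, against a median of 6 CpGs. A full p53 half-site was present in 0 of the 7 windows of the 5 genes and in 7.13% of all windows, and one with at most 1 letter off outside its core C and G in 5 of the 7 and in 44.7% of all windows. Those 5 include all 3 windows of Upp1, some of which overlap, so they do not stand for 5 separate genes. These matches are a description of the letters and say nothing about which factors bind.

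The 9 libraries held 18021375 to 29750702 counts. The label check on the deleted gene was incomplete, since Trp53 still had 112 to 129 CPM in the p53-/- libraries against 125 to 376 CPM in p53+/+ (log2 difference -0.94, SE 0.31, edgeR quasi-likelihood adjusted p = 0.0953), and a count over the whole gene cannot show which exons were read. The p53+/+ and p53R248W/+ alleles are partly human sequence and the build was that of the mouse, so their Trp53 counts may not be a like measure for p53-/-. Cdkn1a, the p53 target that encodes the p21 cell cycle inhibitor, fell to 8.27 to 17.8 CPM in p53-/- from 43.6 to 67 CPM in p53+/+ (log2 difference -2.07, SE 0.30, adjusted p = 0.00914). Kit and Ly6a, which encode Kit and Sca1, the surface proteins of the LSK gate, were present in every library, at a summed 656 to 1080 CPM. The libraries stood apart in sex-linked transcripts. Y-linked Ddx3y was at 0 in all 3 p53-/- libraries and at most 0.112 CPM in p53+/+ replicates 1 and 3 and p53R248W/+ replicate 1, but at 33.6 CPM in p53+/+ replicate 2 and at 25.1 and 64.9 CPM in p53R248W/+ replicates 2 and 3. Xist, the X-inactivation RNA, was at 65 CPM in p53+/+ replicate 2 and at 149 CPM in p53R248W/+ replicate 2, so these 2 libraries held both.

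Slc16a12 stood at 6.75, 5.28 and 4.96 CPM in the 3 p53+/+ libraries, at 8.34, 3.71 and 2.79 CPM in the p53R248W/+ libraries and at 42.9, 20.7 and 80.4 CPM in the p53-/- libraries, in the order of replicates 1, 2 and 3. Each p53-/- library was above every other library, but those 3 libraries themselves spread 3.88-fold. The fitted difference between p53-/- and p53+/+ was 3.08 on the log2 scale (SE 0.50), or 8.47-fold, the widest of the 5 genes. Behind these levels stand 61 to 232 reads a library outside p53-/- and 459 to 1638 reads within it.

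Foxa3 was the lowest of the 5. It had 1.76, 2.24 and 0.837 CPM in p53+/+, 4.74, 2.65 and 3.02 CPM in p53R248W/+ and 12.1, 15.1 and 8.40 CPM in p53-/- LSKs. Here the 3 genotypes formed 3 steps without overlap, with p53R248W/+ between the others. The fitted p53-/- difference was 2.87 on the log2 scale (SE 0.43), or 7.30-fold. The lowest library, p53+/+ replicate 3, rests on 15 reads.

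Upp1 had 9.77, 4.38 and 4.63 CPM in p53+/+, 9.95, 5.10 and 9.55 CPM in p53R248W/+ and 33.3, 47.3 and 22 CPM in p53-/- LSKs. The p53+/+ and p53R248W/+ libraries lay among each other, and the lowest p53-/- library was 2.21 times the highest of the rest. The fitted p53-/- difference was 2.45 (SE 0.40, log2), or 5.45-fold.

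Sult1a1 had 7.51, 2.19 and 3.85 CPM in p53+/+, 6.61, 4.24 and 5.80 CPM in p53R248W/+ and 18, 40.7 and 11.3 CPM in p53-/- LSKs. It had the narrowest gap, with its lowest p53-/- library 1.5 times p53+/+ replicate 1, and the widest relative spread within p53-/- (coefficient of variation 66.1%). Its p53-/- difference was 2.37 (SE 0.52, log2), or 5.16-fold.

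Trib2 had 10, 7.97 and 7.25 CPM in p53+/+, 7.12, 10.4 and 5.48 CPM in p53R248W/+ and 36.9, 37.4 and 44.4 CPM in p53-/- LSKs. It was the most even of the 5, with a coefficient of variation of 10.6% in p53-/- and a lowest p53-/- library 3.55 times the highest of the others. Its p53-/- difference of 2.23 (SE 0.27, log2), or 4.70-fold, was the smallest of the 5 and had the smallest error. Pabpc4l, just outside the choice, differed by 2.17 (SE 0.48, log2) and Lgr4 by 2.15 (SE 0.40), so the border between Trib2 and the next genes is narrower than their errors. As the p53-/- and p53+/+ libraries chose the genes, their differences in that contrast are a description and carry no p-value. In it 1.25% of all genes were called higher and 15.4% had p53-/- libraries wholly above p53+/+.

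**Figure D1:**
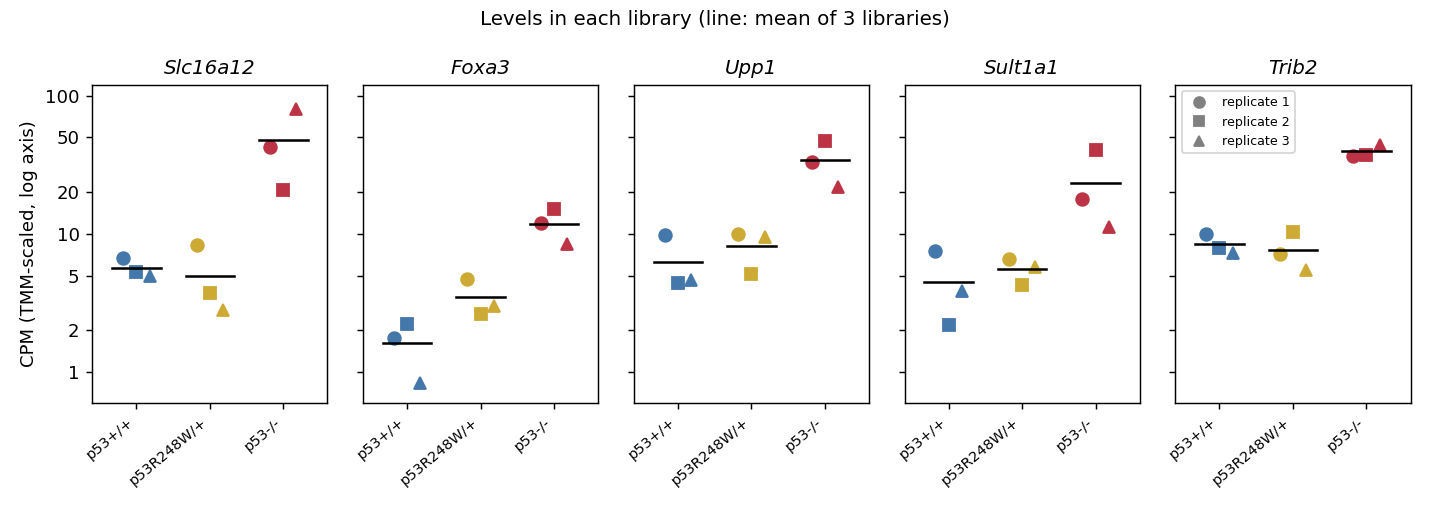
Levels of the 5 genes in each library, in TMM-scaled CPM on a log axis, with a line at the mean of the 3 libraries of a genotype and the marker shape for the replicate number. The p53-/- libraries lie above all others in each panel, closely together for Trib2 (36.9 to 44.4 CPM) and far apart for Slc16a12 (20.7 to 80.4 CPM).

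Per transcript length, Slc16a12 and Trib2 changed places between p53+/+ and p53-/- LSKs and the other genes kept theirs. In p53+/+ LSKs the mean level was 4.09 ± 1.99 RPKM (CPM per kilobase of transcript; SD, n = 3) for Upp1, 3.30 ± 1.99 RPKM for Sult1a1, 2.00 ± 0.343 RPKM for Trib2, 1.46 ± 0.247 RPKM for Slc16a12 and 0.791 ± 0.350 RPKM for Foxa3. In p53-/- LSKs Upp1 stood at 22.3 ± 8.26 RPKM, Sult1a1 at 17.0 ± 11.3 RPKM, Slc16a12 at 12.4 ± 7.80 RPKM, Trib2 at 9.42 ± 0.998 RPKM and Foxa3 at 5.81 ± 1.64 RPKM. In that second order each neighbouring pair differed by less than the larger of its SDs, except for the step from Trib2 to Foxa3. By CPM, Slc16a12 went from percentile 18.8 of all genes in p53+/+ to percentile 58.9 in p53-/- LSKs, and Foxa3 from percentile 7.8 to 29.

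Between p53R248W/+ and p53+/+ LSKs, 0 of the 5 genes differed by edgeR's quasi-likelihood test after adjustment over all 12625 genes (adjusted p = 1.00 for each). The same count was 0 with DESeq2 and 0 with limma-voom. In this contrast only 0.00792% of all genes were called in either direction, a single gene. Only 0.958% had an unadjusted p below 0.05, fewer than tests without any difference would give, so the test was strict here and the count of 0 says little. The libraries of these 2 genotypes matched by replicate number (6 of 6), which the fit left out. With a replicate block over all 9 libraries the count was also 0, and no paired fit of these 2 genotypes alone was run. The mean of Slc16a12 was 4.94 ± 2.97 CPM (SD, n = 3) in p53R248W/+ against 5.66 ± 0.954 CPM in p53+/+, and the 95% interval of its log2 difference ran from -1.24 to 0.86. Trib2 was at 7.67 ± 2.5 against 8.42 ± 1.44 CPM, with an interval from -0.71 to 0.43. The upper bounds correspond to 1.82-fold for Slc16a12 and 1.35-fold for Trib2.

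For Upp1 the p53R248W/+ mean was 8.20 ± 2.69 CPM against 6.26 ± 3.04 CPM in p53+/+ LSKs (log2 difference 0.39, 95% interval -0.46 to 1.24). Sult1a1 had 5.55 ± 1.21 against 4.52 ± 2.72 CPM (log2 difference 0.30, interval -0.79 to 1.39). In both genes the libraries of the 2 genotypes overlapped, and the upper bounds reach 2.37-fold for Upp1 and 2.63-fold for Sult1a1, so the intervals include rises up to those sizes.

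Foxa3 was the exception in the raw levels. All 3 p53R248W/+ libraries (mean 3.47 ± 1.12 CPM) lay above all 3 p53+/+ libraries (1.61 ± 0.714 CPM), as they did for 2.66% of all genes. The log2 difference was 1.10 (SE 0.42, interval 0.19 to 2.01), or 2.14-fold, with an unadjusted edgeR p of 0.0222 and an adjusted p of 1.00. The p53+/+ libraries were part of the choice, which favors genes low in them, so this contrast is not independent of it. Foxa3 was the only one of the 5 with an unadjusted p below 0.05, beside 0.958% of all genes, and it failed the adjustment.

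**Figure D2:**
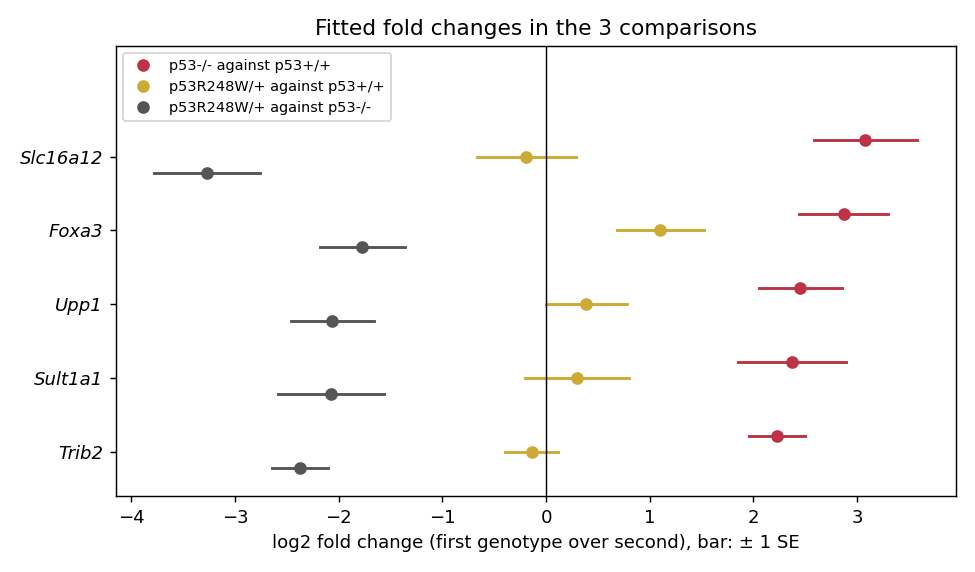
Fitted log2 fold changes of the 5 genes in the 3 comparisons, with bars of 1 SE to each side; positive values are higher in the genotype named first. The p53R248W/+ against p53+/+ differences lie between -0.19 and 0.39 except for Foxa3 (1.10), and the 3 comparisons share libraries with each other and with the choice of the genes.

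Against p53-/- LSKs, p53R248W/+ LSKs were lower in 5 of the 5 genes by edgeR (adjusted p below 0.05), beside 1.10% of all genes called lower and 2.34% higher. The p53-/- libraries in this contrast are the ones whose high values chose the genes, so nothing is read from that count, and the differences are given without p-values for single genes. Slc16a12 was 9.65-fold lower (log2 difference -3.27, SE 0.51) and Trib2 5.16-fold lower (-2.37, SE 0.27). Sult1a1 was 4.19-fold lower (-2.07, SE 0.51), Upp1 4.16-fold lower (-2.06, SE 0.40) and Foxa3 3.40-fold lower (-1.77, SE 0.41). No p53R248W/+ library reached a p53-/- library in any of the 5, as held for 12% of all genes.

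Since no p53R248W/+ library reached a p53-/- library, leaving out 1 library could not turn the direction of these differences. Only their size varied. The log2 difference ranged from -3.90 to -2.68 for Slc16a12, from -2.65 to -2.18 for Trib2, from -2.40 to -1.39 for Sult1a1, from -2.29 to -1.75 for Upp1 and from -2.09 to -1.56 for Foxa3. The smallest difference of Sult1a1, Upp1 and Foxa3 was the one without p53-/- replicate 2, the highest library of each. The number of genes called was 2 without p53R248W/+ replicate 2 or 3 or p53-/- replicate 1 or 2, 3 without p53-/- replicate 3 and 4 without p53+/+ replicate 3. DESeq2 called 5 and limma-voom 4.

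The Y-linked transcripts described above moved with genotype as well. When the Y-linked level entered the fit, the log2 differences were -2.84 (SE 0.54) for Slc16a12, -2.33 (SE 0.34) for Trib2, -1.75 (SE 0.50) for Foxa3, -1.70 (SE 0.48) for Upp1 and -1.49 (SE 0.62) for Sult1a1. In that fit 2 of the 5 genes, Trib2 and Slc16a12, were called. Nothing is read from this count either, since the p53-/- libraries chose the genes. The 6 libraries without Y-linked counts leave 1 p53R248W/+ library, which is taken to vary like the others. With these alone the log2 differences were -2.53 (SE 0.63), -2.49 (SE 0.38), -1.34 (SE 0.57), -1.80 (SE 0.53) and -1.84 (SE 0.68), in the order of genes used for the first fit.

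The 5 genes did not rise in step within p53-/- LSKs. Replicate 2 was the highest p53-/- library for Upp1 (47.3 CPM), Sult1a1 (40.7 CPM) and Foxa3 (15.1 CPM), and replicate 3 was the lowest for each of them. Slc16a12 ran the other way, with its highest level in replicate 3 and its lowest in replicate 2, and Trib2 was also highest in replicate 3.

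Upp1 and Sult1a1 were the closest pair among the 5 genes. After subtracting each genotype's mean, Pearson's r of their log2 CPM was 0.90 over the 9 libraries. Over the 6 p53+/+ and p53R248W/+ libraries, which do not differ in p53-/- status, r was also 0.90, here without subtracting the genotype means. In those 6 libraries p53+/+ replicate 1 and p53R248W/+ replicates 1 and 3 were the higher ones for both genes. Foxa3 and Upp1 had a within-genotype r of 0.54, Slc16a12 and Trib2 one of 0.32, and Slc16a12 and Sult1a1 one of -0.36. Genes outside the 5 were as close, with a within-genotype r of 0.94 for Upp1 with Trim13 and 0.93 for Sult1a1 with Fam212a, so the pair is not particular. These values describe 9 libraries in which all 5 genes share the same depth and preparation, and they carry no test.

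**Figure D3:**
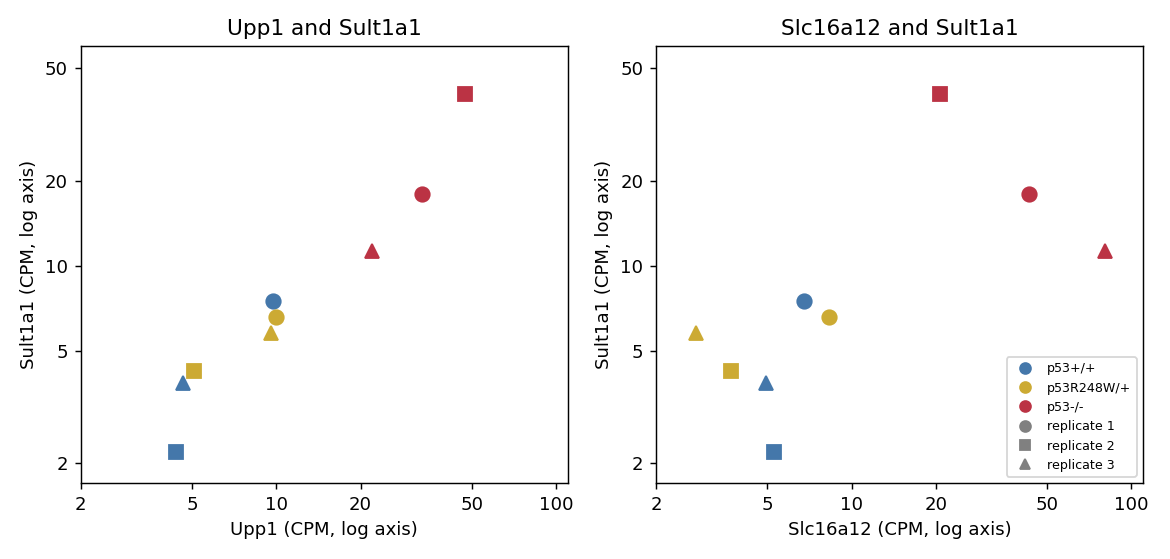
Levels of Sult1a1 against Upp1 (left) and against Slc16a12 (right) in the 9 libraries, in CPM on log axes, with color for genotype and shape for replicate. Sult1a1 follows Upp1 along 1 line through all genotypes, whereas among the p53-/- libraries the one highest in Slc16a12 (80.4 CPM) is the lowest in Sult1a1 (11.3 CPM).

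Among 11483 genes with an average log2 CPM of at least 1, the 3 genes whose log2 CPM over the 9 libraries was most like each of the 5 were named. For Slc16a12 they were Poldip3 (r = 0.984), Lgalsl (0.976) and Alg2 (0.973), and for Foxa3 Pdgfd (0.984), Usb1 (0.974) and Tlr4 (0.971), the lipopolysaccharide receptor. For Upp1 they were Trim13 (r = 0.986), Npdc1 (0.985) and Blcap (0.983), and for Sult1a1 Fam212a (0.980), Gimap9 (0.969) and Upp1 itself (0.969). Trib2 was most like Tmem39a (r = 0.982), Tmbim1 (0.970) and Tmem185b (0.963). Pdgfd, a platelet-derived growth factor, went from 1.26 CPM in p53+/+ to 5.20 CPM in p53-/- LSKs. Apart from Upp1 and Pdgfd, these genes differed less between the 2 genotypes than the 5 did. Their log2 differences ran from 0.45 for Poldip3 (215 and 294 CPM) to 1.19 for Tlr4 (13.1 and 29.9 CPM). As many as 250 genes had an r above 0.9 with Upp1 and at least 118 with each of the others, in a set of libraries where the p53-/- ones stand apart. By Spearman's rank correlation 0 of the 15 choices stayed the same.

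The families and pathways of the 5 genes showed no call of their own. In lists without the 5 genes, 0 of 11 Slc16 transporters, 0 of 3 creatine genes, 0 of 13 forkhead factors, 0 of 25 genes of pyrimidine salvage and breakdown, 0 of 10 genes of sulfonation and 0 of 21 Tribbles genes and partners were called by edgeR in p53-/- against p53+/+ LSKs, in which 1.25% of all genes were called higher and 2.25% lower. At an unadjusted p below 0.05 the counts were 4, 0, 3, 2, 2 and 3, beside 23.4% of all genes, and DESeq2 called 2, 0, 2, 0, 1 and 1, beside 12.3% of all genes. The medians of the log2 differences lay between -0.14 for the creatine genes and 0.15 for sulfonation, beside 0.00 over all genes. In p53R248W/+ against p53+/+ LSKs 0 genes of these 6 lists were called and 0 had an unadjusted p below 0.05, and 0 were called by edgeR in p53R248W/+ against p53-/- LSKs, where 4, 0, 4, 0, 1 and 1 had an unadjusted p below 0.05, beside 21% of all genes, and DESeq2 called 3, 0, 1, 0, 0 and 1, beside 10.5% of all genes.

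The nearest relatives, named after their values were seen, give a sense of scale. Slc16a9, another member of the Slc16 family, had 14.9, 8.97 and 5.97 CPM in p53+/+ and 27.2, 20.8 and 24.9 CPM in p53-/- LSKs (log2 difference 1.29, SE 0.34, adjusted p = 0.0574). Trib3, the stress-induced Tribbles gene, had 13.8, 12.2 and 5.58 CPM in p53+/+ and 22.9, 34.6 and 21.2 CPM in p53-/- LSKs (1.32, SE 0.36, adjusted p = 0.0619). Both missed the threshold. Their p53-/- libraries lay wholly above the p53+/+ libraries, as held for 15.4% of all genes. Each had the highest log2 difference of its list, in which 7 of 11 Slc16 genes and 13 of 21 Tribbles genes and partners were positive. The lowest of the Slc16 list was Slc16a10 (-0.70, SE 0.23, log2). Trib1 (log2 difference -0.53, SE 0.54, adjusted p = 0.586) and Cebpa, which encodes the C/EBPα that Trib2 targets (0.49, SE 0.25, adjusted p = 0.270), were not called. Among the genes of the PAPS donor pathway, Papss1 differed by 0.06 (SE 0.17, log2, adjusted p = 0.866) and Papss2 by -0.83 (SE 0.53, adjusted p = 0.367).

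In a list of 32 p53 targets, 1 gene rose and 3 fell in p53-/- LSKs, with a median log2 difference of -0.16, beside 1.25% of all genes called higher and 2.25% lower. Besides Cdkn1a, Ercc5, a DNA repair endonuclease (-1.15, SE 0.27, adjusted p = 0.0400), and Ckap2, a spindle protein (-1.09, SE 0.25, adjusted p = 0.0406), fell. Sesn1, a stress-induced regulator of mTORC1, rose by 0.76 on the log2 scale (SE 0.16, adjusted p = 0.0332). Ercc5 lost its call in 11 of the alternative fits, Ckap2 in 7 and Sesn1 in 7, most of them fits with 1 library left out. At an unadjusted p below 0.05 there were 11 of 32 genes, beside 23.4% of all genes. Cdkn1a was at 41.8 ± 8.97 CPM (SD, n = 3) in p53R248W/+ LSKs, against 12.3 ± 4.91 CPM in p53-/- LSKs (log2 difference 1.76, SE 0.30, adjusted p = 0.0126), and it did not pass against p53+/+ (-0.30, SE 0.29, adjusted p = 1.00).

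Marker levels of LSK subsets and of other cells moved with the p53-/- genotype too, and their part in the rise of the 5 genes was not tested. The summed level of 32 HSC markers was 4600 to 5520 CPM in p53-/- libraries, 3150 to 4010 CPM in p53+/+ and 3200 to 3780 CPM in p53R248W/+. Of these markers 27 of 32 had a positive log2 difference in p53-/- against p53+/+ LSKs and 3 were called higher by edgeR, beside 1.25% of all genes. The 3 were Ltb (1.38, adjusted p = 0.0400), Trim47 (1.15, adjusted p = 0.0294) and Hlf (1.14, adjusted p = 0.0242), an HSC transcription factor. Like Upp1, Sult1a1 and Foxa3, Procr, the HSC surface receptor, was highest in p53-/- replicate 2, with 58.1, 88.3 and 43.5 CPM in the 3 p53-/- libraries against 18 to 37.7 CPM in p53+/+. Slamf1, a gene of the same list, went the other way, with 3.05, 1.9 and 6.29 CPM in p53-/- against 5.86 to 7.61 CPM in p53+/+.

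The lists of most other cells were lower in p53-/- LSKs or overlapped. The sum of 12 markers of multipotent and lymphoid-primed progenitors was 3720 to 4330 CPM in p53-/- and 5010 to 5910 CPM in p53+/+ libraries, and that of 28 cell cycle genes 4050 to 5980 against 5960 to 7620 CPM, with 6 of 28 called lower, beside 2.25% of all genes. A positive log2 difference was seen in 0 of these 28 genes and in 0 of 14 granulocyte and monocyte markers. Granulocyte and monocyte markers summed to 2420 to 2800 CPM in p53-/- and 3200 to 6990 CPM in p53+/+ libraries, erythroid markers to 39.1 to 67 against 94.4 to 112 CPM, and T and NK cell markers to 281 to 360 against 439 to 496 CPM. Megakaryocyte markers (195 to 199 against 193 to 250 CPM), B cell markers (96.8 to 115 against 100 to 155 CPM) and stromal and endothelial markers (66.2 to 87.4 against 81 to 125 CPM) overlapped between the 2 genotypes in their sums. A sum is led by its most abundant genes, and the single genes gave another picture for the last 2 lists. The median log2 difference of the 8 B cell markers was -1.06, with 1 called lower. That of the 5 stromal and endothelial markers was 0.45, with 3 of 5 positive and 0 called, and their mean log2 CPM was 2.91 to 3.13 in p53-/- and 2.49 to 2.77 in p53+/+ libraries. The mean log2 CPM of Kit and Ly6a was also higher, at 8.87 to 8.88 in p53-/- and 8.11 to 8.76 in p53+/+ libraries. Of these genes Ly6a was higher (271 to 444 against 149 to 262 CPM), whereas Kit overlapped (493 to 807 against 507 to 861 CPM).

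**Figure D4:**
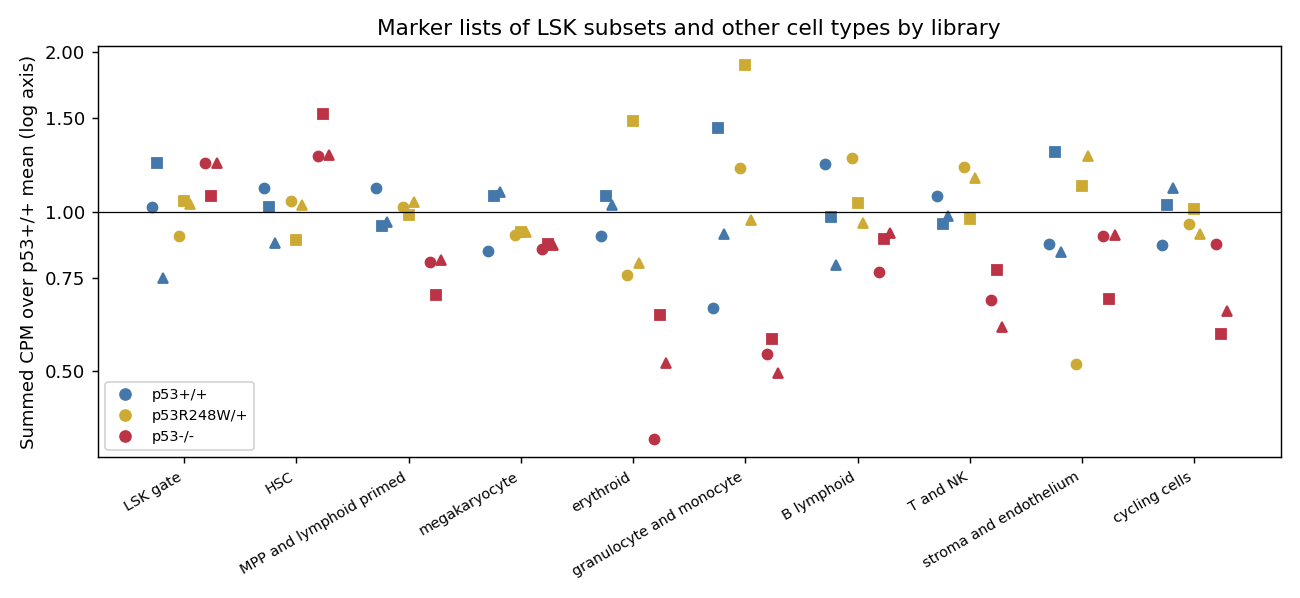
Summed CPM of each marker list in each library, divided by the mean of the 3 p53+/+ libraries, on a log axis, with color for genotype and shape for replicate (circle 1, square 2, triangle 3). The p53-/- libraries lie above the p53+/+ libraries for the HSC list and below them for progenitors, erythroid cells, granulocytes and monocytes, and T and NK cells.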

How the data were processed

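RNA-seq was made from sorted LSKs, 3 libraries for each of 3 genotypes. The labels name a SMART-Seq v4 Ultra Low Input kit. Per the submitters' processing notes, the tools included STAR 2.5.2b and featureCounts of Subread 1.5.0 on mm10, while the annotation and strand setting are not given in the sources used here. The deposited table holds raw counts per gene, made by the authors, with gene lengths. Its lowest row total was 37, and 0 columns of values were left without a sample. Columns that hold the authors' own comparisons (fold change, p-value, FDR) were not used. The ChIP-seq data were not analysed here.

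Counts of all 9 libraries were fitted in one edgeR 4.0.16 quasi-likelihood model (R 4.3.3; filterByExpr by genotype, TMM factors, Benjamini-Hochberg adjustment over 12625 genes, threshold 0.05), with no replicate block. DESeq2 1.42.0 and limma 3.58.1 (voom) were alternatives. log2 CPM used a prior count of 2, and RPKM is CPM over the deposited gene length. SEs are the log2 fold change over the square root of F. The model was tested on simulated data. The biological coefficient of variation was 0.281. No pair of replicates differed by as little as sampling noise (chi-square per degree of freedom at least 24.6).

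The 5 genes, the gene lists and the marker lists were chosen with earlier results of these data known. Genes named are the 5 genes, the 3 most alike to each by Pearson's r, up to 4 called genes of each pathway list, the genes at the border of the choice, Trp53 and Cdkn1a. Others are named as chosen after their values were seen, or as markers. Promoters and positions are from RefSeq (GRCm38.p6). Figures were drawn with matplotlib 3.10.9.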

Additional observations from a re-analysis of the deposited data

How the results depend on the processing

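Besides the reported fit, 22 settings were run, 9 of them leaving out 1 library, and 228 of 285 recomputed log2 fold changes with a test kept their direction and their side of the threshold. The 95 recomputed values of the 5 genes in p53-/- against p53+/+ LSKs have no test and are left out of that count. The share does not measure robustness. Part of it is the 5 genes staying uncalled in p53R248W/+ against p53+/+ LSKs, where only 0.00792% of all genes were called. Another part is the 5 genes against the p53-/- libraries that chose them, and the rest are list genes named because they were called. The number of the 5 genes called in p53R248W/+ against p53+/+ LSKs was 0 in every setting that was run. In p53-/- against p53+/+ LSKs, the count of 5 was fixed by the choice and says nothing about the genes. It was 4 with limma-voom, 4 with the libraries without Y-linked counts (an alternative chosen after seeing the data), 1 at an adjusted p below 0.01 and between 2 and 5 with 1 library left out. In p53R248W/+ against p53-/- LSKs which shares the p53-/- libraries with the choice, it was 5, and 4 with limma-voom, with upper-quartile factors and with the 6 libraries of the 2 genotypes, 2 at an adjusted p below 0.01, 2 when the Y-linked level entered the fit, 1 with the libraries without Y-linked counts and between 2 and 5 with 1 library left out. In p53R248W/+ against p53+/+ LSKs the sign of small differences turned. Slc16a12 (-0.19) was at 0.49 with the libraries without Y-linked counts and between -0.81 and 0.09 with 1 library left out, Sult1a1 (0.30) between -0.03 and 0.88, and Trib2 (-0.14) between -0.42 and 0.05, with 0.01 without p53+/+ replicate 1. The cause was not tested. Same-numbered libraries did not pair throughout: deviations from the genotype means correlated at 0.04 to 0.66 between p53+/+ and p53R248W/+ (6 of 6 libraries best with their own number), at -0.10 to 0.03 between p53+/+ and p53-/-, and at -0.10 to 0.21 between p53R248W/+ and p53-/-. With the replicate block, the 5 genes kept their calls, and the pathway lists had 4 genes called higher and 6 lower in p53-/- against p53+/+ LSKs and 2 lower in p53R248W/+ against p53-/- LSKs. The list counts moved most. In p53-/- against p53+/+ LSKs, 1 list gene was called higher and 3 lower. DESeq2 called 7 and 8, a minimum of 10 counts in every library gave 2 higher, the 6 libraries of the 2 genotypes 4 and 5, an adjusted p below 0.01 gave 0 and 1, one below 0.1 gave 6 and 7, the libraries without Y-linked counts 0 and 1, and leaving out 1 library 0 to 7 and 1 to 7, both highest without p53R248W/+ replicate 1. In p53R248W/+ against p53-/- LSKs, 1 was called higher and 0 lower. DESeq2 called 6 and 6, limma-voom and the DESeq2 size factors 1 lower each, the minimum of 10 counts 2 lower, the 6 libraries 1 lower, the Y-linked covariate 2 higher, an adjusted p below 0.01 gave 0 higher, one below 0.1 gave 4 and 5, and leaving out 1 library 0 to 5 and 0 to 8, the highest again without p53R248W/+ replicate 1. The lowest count of the 5 genes in a single library was that of Foxa3, at 15 reads.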
